A study of Homo sapiens with 24 samples.

Results

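Acyl-CoA synthetases and the enzymes of triglyceride storage were described in HepG2, a line from a human hepatocellular carcinoma. The group was defined by gene symbol: the long-chain acyl-CoA synthetases ACSL1, ACSL3, ACSL4 and ACSL5, the lipins LPIN1, LPIN2 and LPIN3, the diacylglycerol acyltransferases DGAT1 and DGAT2, and the lipid droplet coat protein PLIN2. All 10 genes were found among the 34618 genes of the count table, and all 10 passed the filter on low counts that left 14887 genes for testing. The series compared 3 lines, each made by lentiviral infection and kept under puromycin at 1 ug/mL: one with a non-targeting control hairpin (shCtrl), one with a hairpin against SETD2 (shSETD2) and one with a hairpin against METTL14 (shMETTL14). SETD2 is the histone methyltransferase that deposits H3K36me3, and METTL14 is a subunit of the nuclear complex that writes N6-methyladenosine (m6A) into mRNA. Each line was sampled before actinomycin D, a transcription inhibitor used at 5 ug/mL, and after 1, 3 and 6 h with it. Line and time make 12 groups of 2 libraries each, 24 in all. No source used here says how the replicate cultures of these selected populations were separated, so the p-values reflect the spread of the libraries, which may be technical.

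Long-chain fatty acids enter metabolism only after an acyl-CoA synthetase has joined them to coenzyme A. In the liver the acyl-CoA is burned, secreted or esterified: glycerol-3-phosphate is acylated to phosphatidate, a lipin removes the phosphate to give diacylglycerol, and a DGAT enzyme adds the last acyl chain to make triglyceride. The triglyceride is kept in lipid droplets, which in hepatocytes are coated mainly by PLIN2.

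The promoter windows of the members whose results stand out below are shown first. RefSeq windows (GRCh38.p14), each running from 250 bases before a start site to 50 bases after it, were matched by symbol for 7 of the 10 members and number 15 in all. LPIN1, ACSL1 and PLIN2 are shown because they had the largest differences from shCtrl at 0 h, and LPIN2 because it fell fastest in the first hour of actinomycin D. ACSL1 has 5 windows, of which 2 are printed: the most GC-rich one and the only member window with a sterol element. LPIN1 has 3 windows and LPIN2 has 2, of which the one with the most motif matches is printed. Capitals mark matches on either strand to 6 motifs: the E-box CACGTG, the sterol element TCACNCCAC, the nuclear receptor half-site AGGTCA, the CCAAT box, the GC box GGGCGG and the TATA box TATAAA.
PLIN2, chr9:19127443-19127742, minus strand: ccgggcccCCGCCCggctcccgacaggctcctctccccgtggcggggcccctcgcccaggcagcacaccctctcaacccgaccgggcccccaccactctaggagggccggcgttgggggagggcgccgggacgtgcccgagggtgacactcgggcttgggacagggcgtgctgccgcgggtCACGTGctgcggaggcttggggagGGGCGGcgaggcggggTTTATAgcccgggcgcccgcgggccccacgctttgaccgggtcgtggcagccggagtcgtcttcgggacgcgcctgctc
LPIN2, chr18:3013095-3013394, minus strand: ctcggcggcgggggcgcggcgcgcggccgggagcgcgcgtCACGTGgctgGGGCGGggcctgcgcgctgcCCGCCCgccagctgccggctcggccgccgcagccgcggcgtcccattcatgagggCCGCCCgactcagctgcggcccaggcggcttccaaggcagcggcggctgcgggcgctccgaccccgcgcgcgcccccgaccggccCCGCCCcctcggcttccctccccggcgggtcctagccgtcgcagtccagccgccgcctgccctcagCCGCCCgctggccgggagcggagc
LPIN1, chr2:11746382-11746681, plus strand: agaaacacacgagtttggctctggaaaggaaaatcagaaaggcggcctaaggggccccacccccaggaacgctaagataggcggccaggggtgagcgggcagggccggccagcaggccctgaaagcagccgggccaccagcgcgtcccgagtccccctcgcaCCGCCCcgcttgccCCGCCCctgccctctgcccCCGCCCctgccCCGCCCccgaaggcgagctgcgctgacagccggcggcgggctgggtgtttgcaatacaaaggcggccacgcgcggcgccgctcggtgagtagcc
ACSL1 (GC-rich), chr4:184825919-184826218, minus strand: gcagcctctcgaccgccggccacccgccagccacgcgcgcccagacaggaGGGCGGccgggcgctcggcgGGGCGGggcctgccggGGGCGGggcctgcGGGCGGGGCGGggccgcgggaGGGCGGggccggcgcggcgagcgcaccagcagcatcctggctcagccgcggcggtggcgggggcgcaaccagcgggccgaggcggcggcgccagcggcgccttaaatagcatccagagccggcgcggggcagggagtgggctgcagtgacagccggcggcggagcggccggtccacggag
ACSL1 (sterol element), chr4:184805504-184805803, minus strand: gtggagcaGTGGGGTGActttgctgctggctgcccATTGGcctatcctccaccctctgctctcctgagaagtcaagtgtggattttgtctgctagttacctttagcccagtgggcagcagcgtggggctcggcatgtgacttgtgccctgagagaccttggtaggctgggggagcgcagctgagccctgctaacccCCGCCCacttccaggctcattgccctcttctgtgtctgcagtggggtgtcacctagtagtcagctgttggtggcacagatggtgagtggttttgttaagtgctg
The PLIN2 window holds an E-box beginning at position -69 from the start site and a TATA box at position -29. The printed LPIN2 window holds an E-box at position -210, and the other LPIN2 window holds none of the 6 motifs. An E-box is present in 7.26% of the 35116 RefSeq windows of this length, a TATA box in 11.5% and a GC box in 45.0%. The printed LPIN1 window holds GC boxes alone among these motifs; of the other LPIN1 windows, 1 holds a single GC box and 1 holds no motif. In ACSL1 the sterol element lies at position -242 and a CCAAT box at position -215 of one window; a sterol element is present in 1.13% of all windows, a CCAAT box in 34.6% and the nuclear receptor half-site in 13.8%. GC boxes at neighbouring positions overlap in the GC-rich ACSL1 window. Which of these starts HepG2 cells use was not examined, and a match describes letters only.

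The libraries held between 18.3 and 31.4 M counts, and the members had between 299 and 24835 counts per library. The hairpin targets followed the labels at 0 h. SETD2 stood at 130.6 and 128.7 CPM (counts scaled to a common library size by TMM) in shCtrl and at 90.4 and 81.8 CPM in shSETD2, a log2 difference of -0.59 (edgeR quasi-likelihood test, adjusted p = 1.2e-07). METTL14 stood at 29.3 and 30.0 CPM in shCtrl and at 15.01 and 13.93 CPM in shMETTL14 (log2 difference -1.03, adjusted p = 1.26e-08); in shSETD2 it stood at 38.0 and 38.6 CPM, a log2 difference from shCtrl of 0.37 (adjusted p = 0.0026) that was not called without either shCtrl library at 0 h (replicate 1, adjusted p = 0.101; replicate 2, 0.0625). All 15 hepatocyte markers were detected in each line; their summed level at 0 h was 55977 to 56010 CPM in shCtrl, 65238 to 65524 CPM in shMETTL14 and 106670 to 107590 CPM in shSETD2, and its part in the differences below was not tested. Of the 6 adipocyte markers LEP, FABP4 and LPL had no count at 0 h in any line, of the 8 blood and immune markers PTPRC, CD3E and HBB had none, of the 7 fibroblast markers COL1A2, DCN and THY1, of the endothelial and stellate markers KDR, and of the 6 markers of HEK293T, the cells that made the virus, NEFL. The fibroblast list summed to 4.35 to 9.19 CPM and the HEK293T list to 7.38 to 12.5 CPM over the lines at 0 h. The blood and immune list summed to 1048 to 2134 CPM, of which LYZ made up at least 99.7%, and the endothelial and stellate list to 1409 to 2423 CPM, of which RELN made up at least 97.0%. The 2 libraries of shSETD2 at 6 h differed more than any other pair (chi-square per degree of freedom 19.5, against 1.37 to 5.64 in the other 11 groups), so the calls below that were lost or gained without either of them are named.

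Levels of different genes are compared per length, as RPKM (reads scaled by exon length and library total), at 0 h. In shCtrl PLIN2 was highest, at 82.7 and 86.8 RPKM, followed by ACSL4 at 81.4 and 78.8 RPKM and ACSL3 at 51.7 and 49.7 RPKM. LPIN2 stood at 26.2 RPKM ± 0.068, ACSL5 at 21.3 ± 0.13, ACSL1 at 20.5 ± 0.38 and DGAT1 at 16.95 ± 0.23 (SD, n = 2 each). The low end was DGAT2 at 7.02 RPKM ± 0.25, LPIN3 at 4.07 ± 0.19 and LPIN1 at 1.44 ± 0.12 (SD, n = 2 each). No neighbours in this order overlapped between their libraries, although PLIN2 and ACSL4 came close at their nearest libraries. In both knockdown lines the order began ACSL4, ACSL3, PLIN2. LPIN1 took rank 9 of 10 in shSETD2, above LPIN3, and rank 10 in shMETTL14, where LPIN3 and DGAT2 overlapped.

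**Figure D1:**
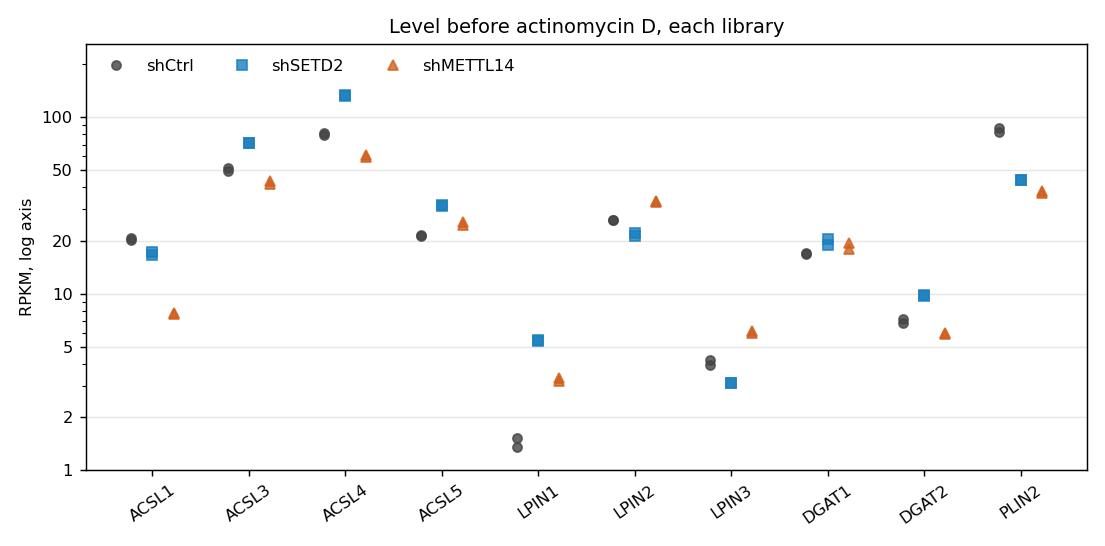
RPKM at 0 h (log axis) for the 10 genes; each point is 1 library, with 2 libraries per line and the lines drawn in 3 colours and shapes. PLIN2 is highest in shCtrl at 82.7 and 86.8 RPKM and LPIN1 lowest at 1.36 and 1.52 RPKM, and ACSL4 is the highest member in both knockdown lines.

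The first comparison asked how member levels differed between each knockdown line and shCtrl before transcription was blocked. In shSETD2, 6 members were higher (LPIN1, ACSL4, ACSL5, ACSL3, DGAT2 and DGAT1) and 3 lower (PLIN2, ACSL1 and LPIN2), against 21.6% of all tested genes called higher and 18.9% called lower. In shMETTL14, 4 members were higher (LPIN1, LPIN3, LPIN2 and ACSL5) and 5 lower (ACSL1, PLIN2, ACSL4, ACSL3 and DGAT2), against 23.1% and 25.1% of all tested genes. The median log2 difference of the members was 0.50 in shSETD2, beside 0.017 over all tested genes, and -0.10 in shMETTL14, beside -0.0062. Both comparisons share the shCtrl libraries. Because the data are bulk shares of a library, less of an RNA per cell and fewer cells with it cannot be told apart.

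**Figure D2:**
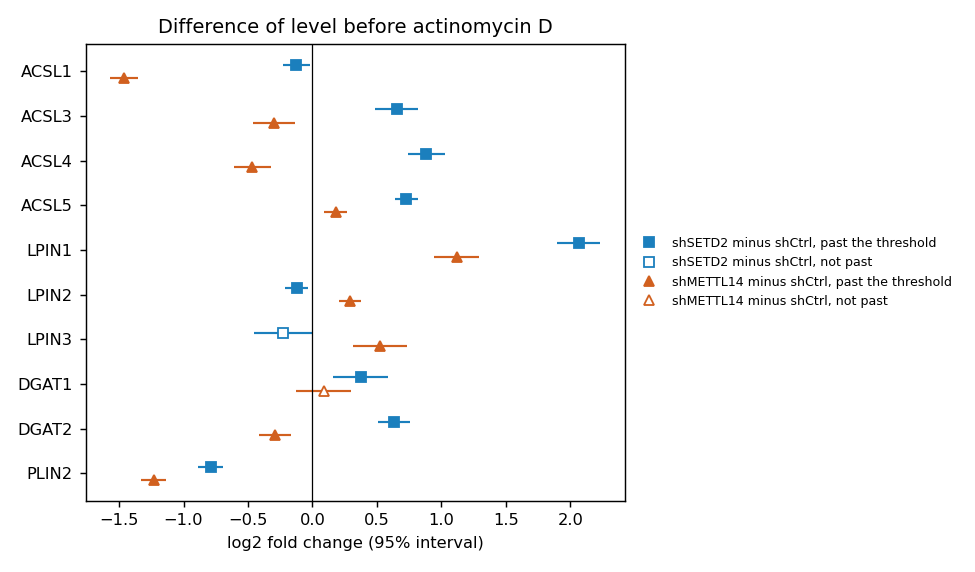
Log2 fold change at 0 h against shCtrl with its 95% interval for each member, squares for shSETD2 and triangles for shMETTL14; filled symbols passed an adjusted p of 0.05. LPIN1 lies at 2.06 and 1.12, PLIN2 at -0.79 and -1.23, and ACSL1 at -0.12 and -1.46 in shSETD2 and shMETTL14.

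Among the acyl-CoA synthetases, ACSL3 and ACSL4 moved in opposite directions in the knockdown lines. ACSL4 (chrX:108867473-108976632 in GRCh37, minus strand), which prefers arachidonate and other polyunsaturated fatty acids, stood at 456.8 and 440.4 CPM in shCtrl, 826.6 and 827.1 CPM in shSETD2, and 320.1 and 329.5 CPM in shMETTL14. The 3 lines did not overlap: shSETD2 was 1.84-fold higher than shCtrl (log2 0.88 ± 0.069 SE, adjusted p = 4.63e-10) and shMETTL14 was at 0.724 of shCtrl (log2 -0.47 ± 0.069 SE, adjusted p = 6.75e-06). ACSL3 (chr2:223725652-223809357, plus strand), a synthetase of the endoplasmic reticulum and of nascent lipid droplets, stood at 327.3 and 313.4 CPM in shCtrl, 501.9 and 504.8 CPM in shSETD2, and 254.9 and 265.8 CPM in shMETTL14. Its log2 differences from shCtrl were 0.65 (adjusted p = 8.63e-07) and -0.30 (adjusted p = 0.0036).

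ACSL1 (chr4:185676749-185747972, minus strand), a major synthetase of liver and fat that feeds both oxidation and triglyceride synthesis, had the largest fall of any member. It stood at 108.3 and 110.7 CPM in shCtrl, 99.0 and 102.0 CPM in shSETD2, and 39.7 and 39.8 CPM in shMETTL14. The shMETTL14 libraries were far below the other 4, at 0.363 of shCtrl (log2 -1.46 ± 0.052 SE, adjusted p = 7.93e-16). The shSETD2 difference was small (log2 -0.12 ± 0.049 SE, adjusted p = 0.0485), and it was no longer called without either shSETD2 library at 0 h (adjusted p = 0.241 and 0.0834). ACSL5 (chr10:114133776-114188138, plus strand), found on mitochondria and endoplasmic reticulum, stood at 80.1 and 80.5 CPM in shCtrl, 133.5 and 132.4 CPM in shSETD2, and 92.4 and 89.2 CPM in shMETTL14. It was 1.66-fold higher in shSETD2 (log2 0.73, adjusted p = 4.66e-12); its log2 difference of 0.18 in shMETTL14 (adjusted p = 0.0018) was not called without any 1 of the 4 libraries compared (adjusted p from 0.121 to 0.452).

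Summed per length, the 4 synthetases reached 172.6 RPKM ± 2.76 in shCtrl, 252.6 ± 1.07 in shSETD2 and 135.8 ± 1.99 in shMETTL14 (SD, n = 2 each). ACSL4 made up 46.4%, 52.5% and 44.4% of that sum in shCtrl, shSETD2 and shMETTL14. ACSL1 made up 11.9% in shCtrl, 6.67% in shSETD2 and 5.68% in shMETTL14, with no overlap between the shCtrl libraries and those of the knockdown lines.

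LPIN1 (chr2:11817721-11967535, plus strand), a phosphatidate phosphatase that also acts as a transcriptional coactivator in liver, was the most changed member in shSETD2. It stood at 14.1 and 15.7 CPM in shCtrl, 62.2 and 62.6 CPM in shSETD2, and 33.1 and 31.6 CPM in shMETTL14. The lines did not overlap: the fold was 4.18 in shSETD2 (log2 2.06 ± 0.082 SE, adjusted p = 3.35e-15) and 2.17 in shMETTL14 (log2 1.12 ± 0.084 SE, adjusted p = 2.2e-10). A small gene on the same strand within LPIN1, AC106875.1, took counts equal to 7.42% of those of LPIN1 over all libraries. At 0 h it moved the other way in shSETD2, at 1.22 and 0.948 CPM against 2.29 and 2.93 CPM in shCtrl. Its share was thus largest in shCtrl, with 58 and 85 counts beside 356 and 456 of LPIN1. It had 36 and 23 beside 1835 and 1519 in shSETD2, and 95 and 77 beside 1062 and 897 in shMETTL14. Its effect on the LPIN1 folds was not tested.

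LPIN2 (chr18:2916992-3013313, minus strand), the main lipin of liver, stood at 156.3 and 155.1 CPM in shCtrl, 145.5 and 140.5 CPM in shSETD2, and 191.9 and 188.9 CPM in shMETTL14. It was higher in shMETTL14 (log2 0.29 ± 0.042 SE, adjusted p = 6.13e-06) and slightly lower in shSETD2 (-0.12 ± 0.043 SE, adjusted p = 0.0255), a call lost without shSETD2 replicate 2 at 0 h (adjusted p = 0.183). LPIN3 (chr20:39969560-39989222, plus strand), a lipin with low liver expression, stood at 15.7 and 16.7 CPM in shCtrl, 13.9 and 13.8 CPM in shSETD2, and 23.7 and 22.9 CPM in shMETTL14. It was higher in shMETTL14 (log2 0.52, adjusted p = 0.00019) and its log2 difference in shSETD2 was -0.23 (adjusted p = 0.099), which passed with other scalings (adjusted p = 0.0403 with RLE size factors). Its 3' end overlaps EMILIN3 on the opposite strand, which held 5.72% as many counts. LPIN2 made up 82.7%, 71.7% and 78.1% of the summed lipin RPKM in shCtrl, shSETD2 and shMETTL14, and LPIN1 4.54%, 17.97% and 7.63%.

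DGAT2 (chr11:75470557-75512579, plus strand), the acyltransferase tied to newly made fatty acids and to droplet growth, stood at 47.3 and 49.5 CPM in shCtrl, 74.6 and 75.5 CPM in shSETD2, and 39.1 and 40.0 CPM in shMETTL14. The lines did not overlap: it was 1.55-fold higher in shSETD2 (log2 0.63 ± 0.059 SE, adjusted p = 7.95e-09) and at 0.817 of shCtrl in shMETTL14 (log2 -0.29 ± 0.060 SE, adjusted p = 0.00035). DGAT1, on chromosome 8, the enzyme of the endoplasmic reticulum that re-esterifies incoming fatty acids, stood at 36.3 and 35.5 CPM in shCtrl, 44.8 and 48.1 CPM in shSETD2, and 36.5 and 39.6 CPM in shMETTL14. Its difference in shSETD2 was 0.37 (adjusted p = 0.0051), and it was not called without shCtrl replicate 1, shCtrl replicate 2 or shSETD2 replicate 2 at 0 h (adjusted p = 0.0813, 0.122 and 0.0532). In shMETTL14 its log2 difference was 0.086, with a 95% interval from -0.13 to 0.30 (adjusted p = 0.514).

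PLIN2 (chr9:19108373-19149288, minus strand), which coats lipid droplets and limits access of lipases, was lower in both knockdown lines. It stood at 368.2 and 384.9 CPM in shCtrl, 217.8 and 218.5 CPM in shSETD2, and 162.5 and 158.6 CPM in shMETTL14. No libraries overlapped between lines: shSETD2 was at 0.579 of shCtrl (log2 -0.79 ± 0.046 SE, adjusted p = 3.34e-12) and shMETTL14 at 0.426 (log2 -1.23 ± 0.047 SE, adjusted p = 2.34e-15).

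Set directly against each other at 0 h, shSETD2 was higher than shMETTL14 in 8 members and lower in 2, LPIN2 and LPIN3, against 29.2% and 23% of all tested genes. The widest gaps were ACSL4 (log2 1.35, adjusted p = 3.22e-13) and ACSL1 (1.34, adjusted p = 1.9e-15), followed by ACSL3 (0.95), LPIN1 (0.95) and DGAT2 (0.92). LPIN3 was the lowest, at -0.75 (adjusted p = 2.33e-06). DGAT1 had the smallest difference, at 0.29 (adjusted p = 0.0202), which was not called without shSETD2 replicate 2 or shMETTL14 replicate 1 at 0 h (adjusted p = 0.131 and 0.141) or by library size alone (0.076, adjusted p = 0.553).

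Transcript GC content moved with the shSETD2 difference. Over 14515 genes the log2 difference at 0 h between shSETD2 and shCtrl had a Spearman rho of -0.26 with GC content, given as a description since these genes share libraries. ACSL4 and ACSL3 have the lowest GC content of the members, at 37.4% and 38.1%, and DGAT1 and LPIN3 the highest, at 63.2% and 58.6%. With each library's GC trend removed, the same 9 members were called in the same directions in shSETD2, with ACSL4 at 0.77, ACSL3 at 0.55 and DGAT1 at 0.59. The slope differences under actinomycin D described below had a stronger relation to GC content, with a rho of 0.44 between shSETD2 and shCtrl, 0.33 between the knockdown lines and 0.11 between shMETTL14 and shCtrl over the same genes.

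The other genes of the pathway, 82 in 5 lists of which 68 were tested, give the setting of these changes. In shSETD2 at 0 h 34 of the 68 were higher and 9 lower, with a median log2 difference of 0.28; in shMETTL14 30 were higher and 11 lower, with a median of 0.33. Over all tested genes the shares were 21.6% higher and 18.9% lower in shSETD2 and 23.1% and 25.1% in shMETTL14, and the counts of each list below stand beside these shares. Among the 18 tested genes of fatty acid activation, 11 were higher and 1 lower in shSETD2, and 13 were higher and 3 lower in shMETTL14. ACSS2, the cytosolic acetyl-CoA synthetase, rose by 2.38 in shSETD2 (adjusted p = 7.95e-19) and by 0.98 in shMETTL14 (adjusted p = 4.55e-12) on the log2 scale. ACSM2B, a medium-chain synthetase, rose by 3.60 in shSETD2 (adjusted p = 4.9e-15) and ACSM3, of the same family, by 1.63 in shMETTL14 (adjusted p = 1.04e-15). The fatty acid transport protein SLC27A4 fell by 0.48 in shMETTL14 (adjusted p = 6.6e-05), ACSS3, a mitochondrial synthetase for short chains, by 0.24 there (adjusted p = 6.35e-05), and AACS, the acetoacetyl-CoA synthetase, by 0.31 in shSETD2 (adjusted p = 0.0027). ACSM2B and its neighbouring copy ACSM2A are near identical, so their counts are uncertain.

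Of the 15 tested glycerolipid acyltransferases, 7 were higher and 3 lower in shSETD2, and 4 were higher and 3 lower in shMETTL14. GPAM, the mitochondrial enzyme that starts glycerolipid synthesis, rose by 0.94 in shSETD2 (adjusted p = 1.42e-10) and fell by 0.84 in shMETTL14 (adjusted p = 1.17e-09). AGPAT2, which makes phosphatidate, did the reverse, with wider errors. Its log2 difference was -1.64 ± 0.24 SE in shSETD2 (adjusted p = 8.26e-06) and 1.00 ± 0.16 SE in shMETTL14 (adjusted p = 2.07e-05). The SE of GPAM was 0.068 and 0.070 in the same order. The monoacylglycerol acyltransferase MOGAT3 was higher in shSETD2 (1.28, adjusted p = 5.16e-09) and AGPAT9, a glycerol-3-phosphate acyltransferase, lower (-0.41, adjusted p = 0.0022). AGPAT3 was higher (0.84, adjusted p = 1.27e-10) and AGPAT5 lower (-0.56, adjusted p = 2.61e-06) in shMETTL14.

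Among the 9 tested phosphatidate phosphatases and regulators, 3 were higher in shSETD2 and the others did not pass; the leading ones were PPAPDC1B (0.47, adjusted p = 3.39e-05) and PPAP2B (0.28, adjusted p = 0.00045; 0.0993 without shCtrl replicate 2). In shMETTL14 4 were higher, with CDS2, which turns phosphatidate into CDP-diacylglycerol, at 0.43 (adjusted p = 1.76e-08) and PPAP2B at 0.33 (adjusted p = 6.92e-05); the 1 that fell was PPAP2A, a lipid phosphate phosphatase, by 1.04 (adjusted p = 5.85e-09).

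Of the 17 tested lipid droplet genes, 8 were higher and 5 lower in shSETD2, and 7 were higher and 2 lower in shMETTL14. CIDEC, which drives droplet fusion, rose by 3.29 in shSETD2 (adjusted p = 1.51e-13), and it is also on the adipocyte marker list, whose summed level at 0 h was 13.8 to 14.5 CPM in shSETD2 and 1.45 to 1.62 CPM in shCtrl. METTL7A, a droplet-associated membrane protein, rose in both lines, by 1.65 in shSETD2 (adjusted p = 8.03e-15) and by 0.83 in shMETTL14 (adjusted p = 1.22e-09). PLIN4, another perilipin, fell in both, by 0.71 (adjusted p = 0.00065) and 0.70 (adjusted p = 0.00047). LPCAT1 was lower in shSETD2 (-0.20, adjusted p = 0.0011). CIDEB, which acts in lipoprotein lipidation, rose by 0.65 in shMETTL14 (adjusted p = 1.27e-07), and AUP1, a droplet protein of the ubiquitin system, fell by 0.39 (adjusted p = 3.4e-06).

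Of the 9 tested lipolysis genes, 5 were higher in shSETD2 and the others did not pass, and 2 were higher and 2 lower in shMETTL14. CES1, a carboxylesterase of hepatocytes, rose by 1.76 in shSETD2 (adjusted p = 1.31e-14) and fell by 1.14 in shMETTL14 (adjusted p = 1.51e-10). LIPA, the lysosomal acid lipase, rose in both, by 1.80 (adjusted p = 1.08e-13) and by 0.72 (adjusted p = 3.53e-07). In shMETTL14 ABHD6 was higher (0.33, adjusted p = 0.0048), a call lost without any 1 of the 4 libraries compared (adjusted p up to 0.162). ABHD5, the activator of adipose triglyceride lipase, was lower there (-0.41, adjusted p = 0.0197), a call lost without shCtrl replicate 2 (adjusted p = 0.0867).

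The second comparison followed the members through actinomycin D. Values are shares of the RNA left in each library, so an RNA lost more slowly than the bulk rises, and slopes are in log2 per hour over the 4 times. In shCtrl 6 members rose and 2 fell, against 37.8% and 33.2% of all tested genes. In shSETD2 6 rose and 2 fell, against 34.2% and 36.2%, and in shMETTL14 5 rose and 4 fell, against 38.2% and 34.8%. All called rises depend on the scaling. With libraries scaled to the ribosomal protein genes, which shifted the median slope of all genes in shCtrl from 0.013 to -0.14, no member was called as rising in any line.

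**Figure D3:**
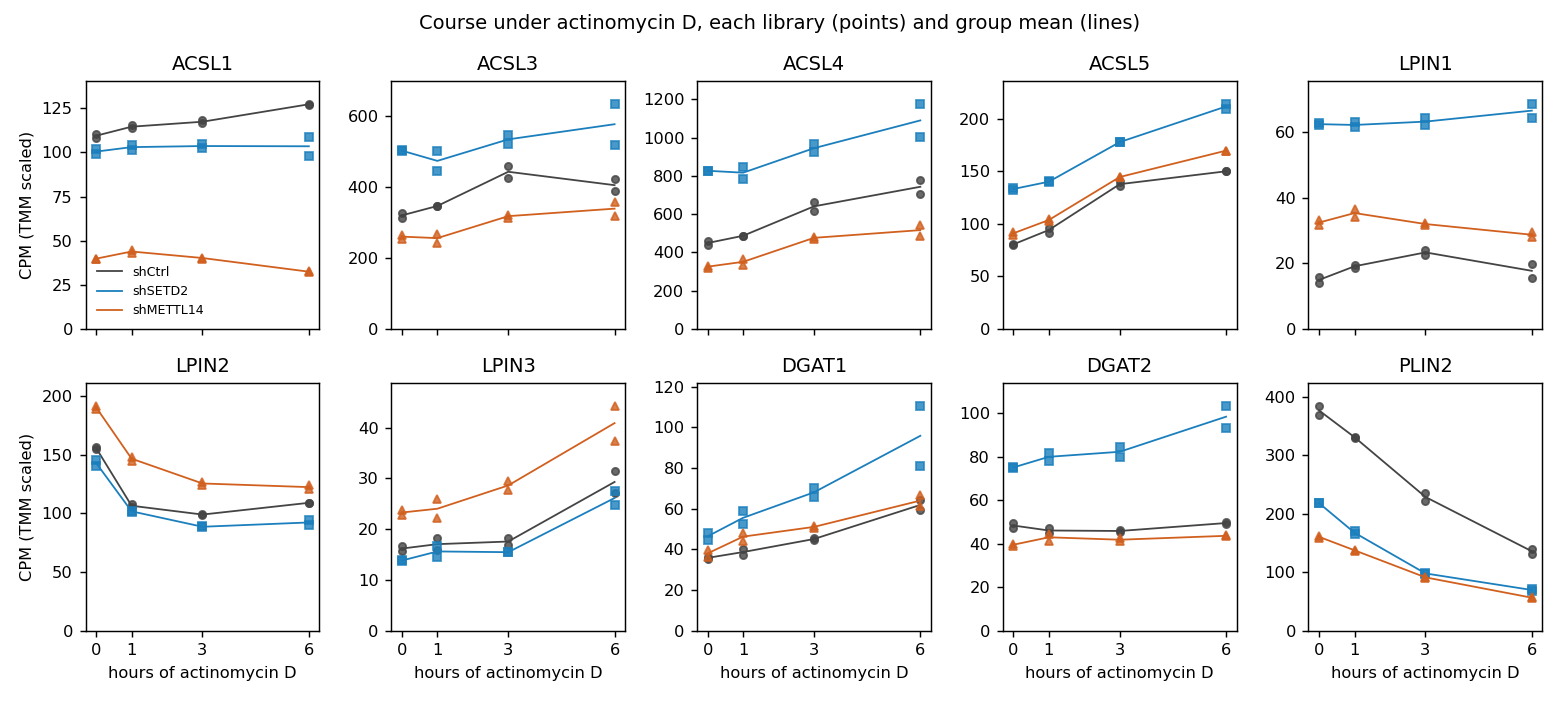
CPM (TMM scaled, linear axes from 0) against hours of actinomycin D for each member; points are single libraries, lines join the means of 2 libraries, and the 3 lines have their own colours and shapes. PLIN2 falls steadily to between 31.97% and 36.1% of its 0 h level. LPIN2 drops in the first hour, then levels off in shCtrl and stands lower at 6 h than at 1 h in both knockdown lines.

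PLIN2 was the fastest-falling member in every line. In shCtrl it went from 368.2 and 384.9 CPM at 0 h to 331.5 and 330.2 CPM at 1 h, 234.8 and 222.7 CPM at 3 h, and 139.9 and 132.0 CPM at 6 h. In shSETD2 the libraries stood at 217.8 and 218.5 CPM at 0 h, 170.3 and 164.8 CPM at 1 h, 99.4 and 96.7 CPM at 3 h, and 72.2 and 67.2 CPM at 6 h. In shMETTL14 they stood at 162.5 and 158.6 CPM at 0 h, 138.2 and 137.0 CPM at 1 h, 90.6 and 92.1 CPM at 3 h, and 55.8 and 57.3 CPM at 6 h. At 6 h 36.1%, 31.97% and 35.2% of the 0 h mean was left in shCtrl, shSETD2 and shMETTL14. The slopes were -0.25 ± 0.0076, -0.27 and -0.25 log2 per hour (adjusted p = 4.92e-18, 1.88e-18 and 7.08e-18), which correspond to relative half-lives of 4.02, 3.65 and 3.93 h. PLIN2 fell under every scaling and time window tried.

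Neither knockdown line differed from shCtrl in the slope of PLIN2 at the adjusted threshold. The slope difference was -0.026 log2 per hour for shSETD2 (95% interval -0.048 to -0.0036, adjusted p = 0.147) and -0.0057 for shMETTL14 (-0.028 to 0.016, adjusted p = 0.861). Over 0, 1 and 3 h alone the shSETD2 difference was -0.14 (adjusted p = 2.36e-06), a window in which PLIN2 fell to 45.0% of its 0 h mean in shSETD2 and to 60.7% in shCtrl.

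LPIN2 lost share in the first hour in every line, and in both knockdown lines its libraries at 6 h stood below those at 1 h. In shCtrl it went from 156.3 and 155.1 CPM to 107.9 and 105.2 CPM at 1 h, 98.5 and 99.6 CPM at 3 h, and 109.2 and 109.0 CPM at 6 h. In shSETD2 it went from 145.5 and 140.5 CPM to 101.2 and 102.5 CPM at 1 h, 89.2 and 88.1 CPM at 3 h, and 94.1 and 90.5 CPM at 6 h. In shMETTL14 it went from 191.9 and 188.9 CPM to 144.9 and 148.4 CPM at 1 h, 124.1 and 127.0 CPM at 3 h, and 124.4 and 120.5 CPM at 6 h. No library at 1 h overlapped the 0 h libraries of its line. The change over the first hour was -0.55, -0.49 and -0.38 on the log2 scale in shCtrl, shSETD2 and shMETTL14 (adjusted p = 1.48e-09, 1.02e-08 and 4.03e-07), where 15.9%, 16.1% and 16% of all tested genes fell. Over 1, 3 and 6 h the slope was 0.0071 log2 per hour in shCtrl (adjusted p = 0.559), -0.0034 in shSETD2 (adjusted p = 0.79) and -0.058 in shMETTL14 (adjusted p = 5.67e-05). This fit estimated the scaling again without the 0 h libraries, so its slopes are not on the scale of the CPM above. It moved the median slope of all genes from -0.0013 to 0.017 in shSETD2 and from 0.0105 to -0.0031 in shMETTL14. Over all 4 times the slopes were -0.062, -0.087 and -0.094 log2 per hour.

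Of the other members, ACSL3, ACSL4, ACSL5, DGAT1 and LPIN3 gained share in all 3 lines. ACSL1 and LPIN1 lost share in shMETTL14, with slopes of -0.059 (adjusted p = 2.59e-06) and -0.039 log2 per hour (adjusted p = 0.0091). At 6 h 81.4% and 88.5% of their 0 h means were left there. The loss was not steady: ACSL1 stood at 110% at 1 h and 101% at 3 h, and LPIN1 at 109% and 98.6%. The LPIN1 slope call was lost without shMETTL14 replicate 1 at 0 h or replicate 2 at 6 h. ACSL5 gained most among the synthetases, from 80.3 CPM ± 0.27 to 149.8 ± 0.021 over 6 h in shCtrl, from 133.0 ± 0.78 to 211.5 ± 3.92 in shSETD2 and from 90.8 ± 2.28 to 169.5 ± 0.15 in shMETTL14 (SD, n = 2 each). ACSL4 reached 166%, 132% and 159% of its 0 h mean at 6 h in shCtrl, shSETD2 and shMETTL14, and ACSL3 127%, 115% and 130%. DGAT1 reached 173%, 206% and 168%, with the shSETD2 libraries at 110.8 and 81.1 CPM, and LPIN3 181%, 189% and 176%. The rise of ACSL3 in shSETD2 was not called without replicate 2 at 6 h (0.016 log2 per hour). ACSL1 also rose in shCtrl (0.034 log2 per hour), a call lost without shCtrl replicate 1 or replicate 2 at 0 h and in 6 of 14 other settings. These rises depend on the scaling as stated above.

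DGAT2 and ACSL1 differed between lines in their course. DGAT2 in shCtrl stayed between 45.1 and 50.2 CPM at all times, and in shMETTL14 between 39.1 and 44.5 CPM, while in shSETD2 it went from 74.6 and 75.5 CPM at 0 h to 103.5 and 93.3 CPM at 6 h. ACSL1 in shCtrl went from 108.3 and 110.7 CPM to 126.9 and 127.8 CPM at 6 h, in shSETD2 from 99.0 and 102.0 CPM to 98.1 and 108.9 CPM, and in shMETTL14 from 39.7 and 39.8 CPM to 32.6 and 32.1 CPM. At 6 h shMETTL14 thus held 25.4% of the shCtrl mean of ACSL1, compared with 36.3% at 0 h.

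Slope differences from shCtrl test these courses; a scaling error shared by both lines at each time cancels in them, and one that differs between lines does not. For shSETD2, 1 member was higher (DGAT2) and 2 lower (ACSL4 and ACSL5), against 1.49% and 6.45% of all tested genes. These shares depend on the scaling, which each fit estimates again. At a mean of at least 5 CPM 1383 genes were called higher and 255 lower, and from only the groups compared 677 and 123. Without either shCtrl library at 0 h most calls over all genes likewise turned higher. A call lost without a library can therefore reflect a shift of all genes. DGAT2 differed by 0.053 ± 0.013 SE log2 per hour (adjusted p = 0.0142), ACSL4 by -0.053 ± 0.015 (adjusted p = 0.0305) and ACSL5 by -0.036 ± 0.0094 (adjusted p = 0.0206). The DGAT2 call was lost without shSETD2 replicate 1 at 6 h (0.040, adjusted p = 0.078) and without shCtrl replicate 1 at 6 h (0.050, adjusted p = 0.0524). The ACSL4 call was lost without 9 of the 16 libraries taken singly: shCtrl replicates 1 and 2 at 0 h and at 1 h and replicate 2 at 6 h, and shSETD2 replicates 1 and 2 at 0 h, replicate 2 at 1 h and replicate 1 at 6 h. The ACSL5 call was lost without 5 of them: shCtrl replicates 1 and 2 at 0 h and replicate 2 at 6 h, and shSETD2 replicate 1 at 0 h and at 6 h. Without shSETD2 replicate 1 at 6 h all 3 calls were lost. Without replicate 2 at 6 h ACSL1 (-0.041) and DGAT1 (0.072) were called as well. In that fit many more of all tested genes were called too, in both directions, so the gain is not particular to the members. The ACSL4 and ACSL5 calls were each also lost in 10 of 14 other settings, among them every other scaling: with RLE size factors the differences were -0.033 (adjusted p = 0.20) and -0.017 (adjusted p = 0.324), by library size alone -0.043 (adjusted p = 0.0847) and -0.026 (adjusted p = 0.113), and with ribosomal protein gene scaling -0.047 (adjusted p = 0.379) and -0.031 (adjusted p = 0.305). DGAT2 was called under each of these scalings and, of the 14 settings, lost over the 2 shorter time windows (adjusted p = 0.121 and 0.137). With the GC trend removed ACSL4 stood at -0.017 (adjusted p = 0.0744), ACSL5 at -0.026 (adjusted p = 0.0189) and DGAT2 at 0.045 (adjusted p = 0.0034), and LPIN2 (-0.025, adjusted p = 0.0327) and PLIN2 (-0.027, adjusted p = 0.0294) were called too.

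For shMETTL14, 2 members passed, ACSL1 and LPIN1, both with a lower slope, against 1.85% of all tested genes called higher and 3.35% lower. At a mean of at least 5 CPM 1377 genes were called higher and 284 lower. ACSL1 differed by -0.093 ± 0.012 SE log2 per hour (adjusted p = 1.94e-05), and this call held without any 1 library and with every scaling; over 0, 1 and 3 h alone the difference was -0.049 (adjusted p = 0.172). LPIN1 differed by -0.068 ± 0.019 (adjusted p = 0.0391). Its libraries stood at 14.1 and 15.7 CPM at 0 h, 24.0 and 22.6 CPM at 3 h and 15.5 and 19.8 CPM at 6 h in shCtrl, and at 33.1 and 31.6, 32.2 and 31.6, and 29.4 and 27.9 CPM at the same times in shMETTL14. The LPIN1 call was lost in 5 of 14 other settings, such as RLE size factors (adjusted p = 0.0718), and without 12 of the 16 libraries taken singly (adjusted p up to 0.382); it held without shCtrl replicates 1 and 2 at 3 h, shCtrl replicate 1 at 6 h and shMETTL14 replicate 2 at 1 h.

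**Figure D4:**
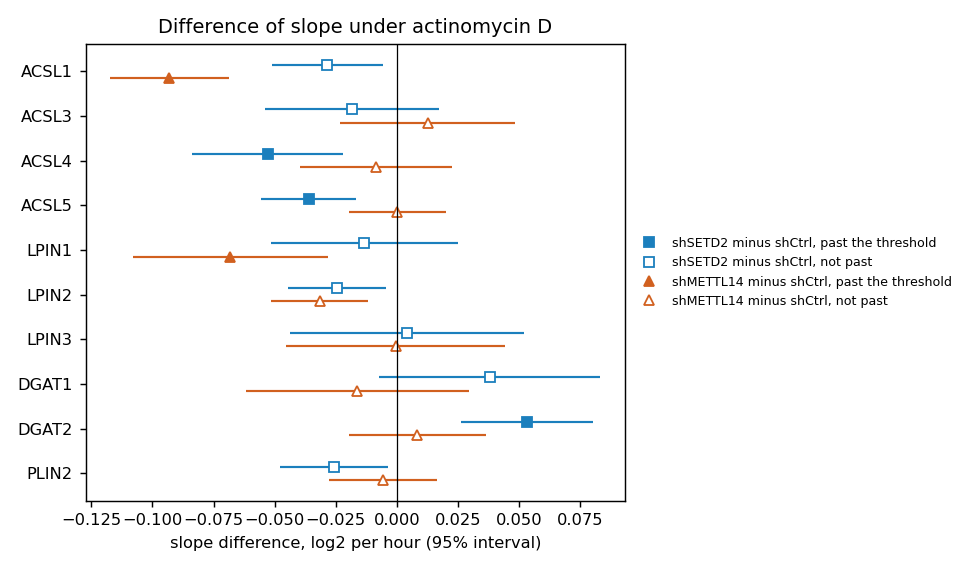
Slope difference from shCtrl in log2 per hour with its 95% interval for each member, squares for shSETD2 and triangles for shMETTL14; filled symbols passed an adjusted p of 0.05. ACSL1 in shMETTL14 lies furthest from 0 at -0.093, and DGAT2 in shSETD2 is the highest called value at 0.053.

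Between the knockdown lines, the slope was higher in shSETD2 than in shMETTL14 for ACSL1 (0.065, adjusted p = 0.0011), LPIN1 (0.055, adjusted p = 0.0444) and DGAT2 (0.045, adjusted p = 0.0334), and lower for ACSL5 (-0.036, adjusted p = 0.0165), against 3.2% and 6.4% of all tested genes. Of the 16 libraries left out in turn, the LPIN1 call was lost without 13 (adjusted p up to 0.179) and held without shMETTL14 replicate 2 at 0 h and at 1 h and shSETD2 replicate 2 at 6 h. The DGAT2 call was lost without 7: shSETD2 replicates 1 and 2 at 0 h, replicate 2 at 1 h and replicate 1 at 6 h, and shMETTL14 replicate 2 at 1 h and replicates 1 and 2 at 6 h. The ACSL5 call was lost without shMETTL14 replicates 1 and 2 at 0 h and replicate 2 at 6 h, and in 9 of 14 other settings, among them every other scaling (adjusted p = 0.155 with RLE size factors, 0.391 by library size alone and 0.649 with ribosomal protein gene scaling). Without shSETD2 replicate 2 at 6 h ACSL3 (-0.056), ACSL4 (-0.065) and DGAT1 (0.088) were called as well. Calls over all tested genes rose in both directions in that fit too.

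Among the 68 other pathway genes, 2 had a higher and 4 a lower slope in shSETD2 than in shCtrl, and 3 had a higher and 1 a lower slope in shMETTL14. Over all tested genes the shares were 1.49% higher and 6.45% lower in shSETD2 and 1.85% and 3.35% in shMETTL14, and they depend on filter and scaling as stated above. The acyltransferases AGPAT3 and MBOAT7, which remodel phospholipids, were higher in both: 0.047 and 0.070 log2 per hour in shSETD2 (adjusted p = 0.0367 and 0.0268) and 0.063 and 0.076 in shMETTL14 (adjusted p = 0.0056 and 0.0177), with shared shCtrl libraries. In shSETD2 the lower slopes were those of ACSS3 (-0.048, adjusted p = 0.0025), LPCAT1 (-0.050, adjusted p = 0.0040), AGPAT9 (-0.086, adjusted p = 0.0239) and the cholesterol esterifying enzyme SOAT1 (-0.050, adjusted p = 0.039). In shMETTL14 the small GTPase RAB18 was higher (0.18, adjusted p = 0.0075) and PPAP2A lower (-0.12, adjusted p = 0.016). Each of these 10 calls was lost without at least 1 of the 16 libraries compared. In shSETD2 AGPAT3 and MBOAT7 were each lost without 6, both of them without shCtrl replicate 2 at 1 h and at 6 h, shSETD2 replicate 2 at 0 h and at 1 h and shSETD2 replicate 1 at 6 h, AGPAT3 also without shCtrl replicate 1 at 1 h and MBOAT7 also without shSETD2 replicate 1 at 0 h. AGPAT9 was lost without 5 (shCtrl replicates 1 and 2 at 0 h and replicate 2 at 6 h, and shSETD2 replicate 1 at 0 h and at 6 h), SOAT1 without 11 (all but shCtrl replicate 1 at 3 h and at 6 h, and shSETD2 replicate 1 at 1 h and replicate 2 at 3 h and at 6 h), and ACSS3 and LPCAT1 without either shCtrl library at 0 h. Without shSETD2 replicate 1 at 6 h the differences were 0.030 for AGPAT3 (adjusted p = 0.204), 0.039 for MBOAT7 (adjusted p = 0.205), -0.063 for AGPAT9 (adjusted p = 0.205) and -0.039 for SOAT1 (adjusted p = 0.145). In shMETTL14 AGPAT3 was lost without shCtrl replicate 2 at 6 h, MBOAT7 without that library or shMETTL14 replicate 1 at 6 h, RAB18 without shCtrl replicate 1 at 6 h, and PPAP2A without any 1 of the 4 libraries at 0 h or replicate 1 of either line at 6 h.

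The authors' deposited table of half-lives lists 7772 genes, among them 5 members, and has no error or replicate values. In the authors' deposited table ACSL1 has a half-life of 27.3 h in shCtrl, 7.85 h in shSETD2 and 5.29 h in shMETTL14, and LPIN1 has 32.1, 8.88 and 5.91 h. LPIN2 is listed there at 7.52, 4.63 and 4.46 h, DGAT2 at 16.4, 15.1 and 8.88 h, and PLIN2 at 3.11, 2.48 and 2.61 h in the same order of lines. All 5 are shorter in both knockdown lines in the authors' deposited table, where 88.2% of all listed genes are shorter in shSETD2 and 88.8% in shMETTL14. The median ratio to shCtrl in the authors' deposited table is 0.702 for shSETD2 and 0.717 for shMETTL14. The 5 members range there from 0.277 for LPIN1 to 0.924 for DGAT2 in shSETD2, and from 0.184 for LPIN1 to 0.841 for PLIN2 in shMETTL14.

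**Figure D5:**
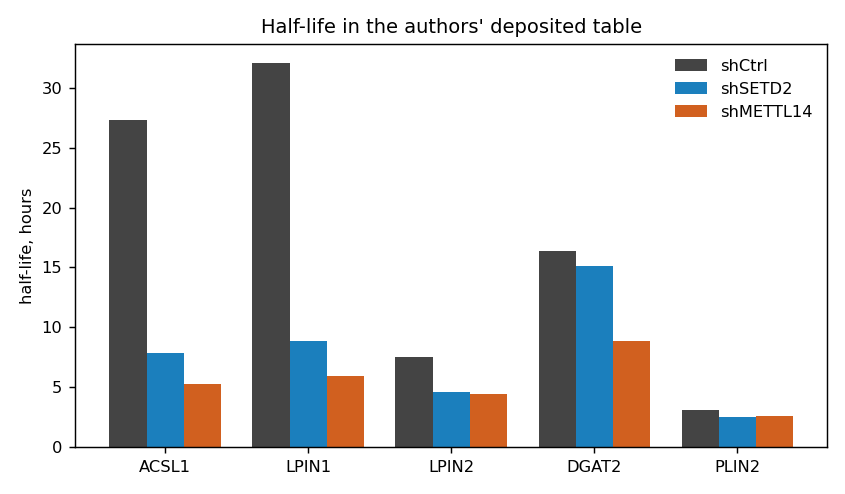
Half-life in hours in the authors' deposited table for the 5 members it lists, with a bar from 0 for each line and no error bars because the table gives none. ACSL1 and LPIN1 have the longest bars in shCtrl, at 27.3 and 32.1 h, and PLIN2 the shortest, at 3.11 h.

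That table and the slopes matched in part. The half-lives were deposited with this series, 1 per gene and line, so a match with the slopes is no independent support. The slopes are relative to the bulk of each library, and how the deposited half-lives were scaled is not stated in the sources used. PLIN2 is the shortest-lived of the 5 by both. ACSL1 and LPIN1 have the lowest ratios in shMETTL14 in the authors' deposited table, and are the 2 members whose slope was lower in shMETTL14 than in shCtrl. For shSETD2 the authors' deposited table gives ACSL1 a ratio of 0.288 and LPIN1 one of 0.277, whereas their slope differences were -0.028 (95% interval -0.051 to -0.0058, adjusted p = 0.115) and -0.013 (-0.051 to 0.025, adjusted p = 0.722). Over 0, 1 and 3 h alone the LPIN1 difference was -0.20 (adjusted p = 5.21e-05). For shSETD2 DGAT2 has a ratio of 0.924 in the authors' deposited table, a shorter half-life than in shCtrl but above the median ratio of 0.702 there. Its slope difference was 0.053, called higher. Over all tested genes the median slope difference for shSETD2 was -0.013. Whether the 2 measures differ in direction on a common scale was not tested. For shMETTL14 the authors' deposited table gives DGAT2 a ratio of 0.543, below the median ratio of 0.717 there. Its slope difference was 0.0084 (95% interval -0.020 to 0.036, adjusted p = 0.83), beside a median of -0.0032 over all tested genes.

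Genes with the course most like 4 of the members over the 12 group means were named among 9985 genes, by Pearson correlation of their levels. The closest to ACSL1 were TIMM44 (r = 0.986), ZFAND2A (0.983) and MRPS35 (0.979). The closest to LPIN1 were MPV17L (0.98), CGN (0.97) and EPHA1 (0.97). DGAT2 was followed by AKR1D1 (0.989), MICB (0.988) and TPRG1L (0.984), and PLIN2 by ANKRD11 (0.990), ZNF335 (0.985) and RIPK2 (0.979). These correlations are descriptions, since the 12 means come from 3 lines and share library scaling.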

How the data were processed

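RNA sequencing of 24 HepG2 libraries was analysed from a gene table in which raw counts and RPKM stand side by side, as the authors deposited them. Tools named by the submitters' processing notes are HTSeq 0.6.1p1, TopHat and cutadapt, with GRCh37 as the build; their settings, the annotation and any use of strand are not stated there. The deposited RPKM equal the count divided by exon length and by the library's total in the table, to within 9.3e-05%. Half-lives, given in hours by gene and line, are deposited values of the authors with another unit and no error. The labels mention ERCC spike-in RNA, which was not used here, so every value is a share of its library. The number of value columns without a sample was 0. Group and replicate came from sample titles. The 10 members and the gene lists were chosen with earlier results of these data known.

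Counts were tested with edgeR 4.0.16 (R 4.3.3; TMM, filterByExpr, robust glmQLFit, glmQLFTest, two-sided, Benjamini-Hochberg at 0.05 over the 14887 genes tested), in 1 model of 12 group means with 12 residual degrees of freedom before moderation; adjusted p-values in the text are from it unless another tool is named. Contrasts were levels at 0 h, least-squares slopes of log2 level on hours, slope differences and the change from 0 h to 1 h. Alternatives were other scalings (RLE, library size alone, ribosomal protein genes), filters (none; a mean of at least 5 CPM), DESeq2 1.42.0, limma 3.58.1 (voom, and log2 of RPKM + 0.1 or + 1), a replicate block, only the groups compared, each library left out, slopes over 3 times and, added after seeing the data, removal of each library's GC trend. Fits on fewer libraries or genes estimated the scaling again. Scripts were tested on simulated data. Named pathway genes are up to 2 per direction and list by adjusted p; likeness was ranked among genes with at least 5 CPM. A count of 3 corresponds to 0.0936 to 0.196 CPM, and depth limits counting error only.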

Additional observations from a re-analysis of the deposited data

Results flagged for a closer look

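The 9 slope differences under actinomycin D listed here passed the test between 2 lines (edgeR, adjusted p under 0.05), in log2 per hour. Between shSETD2 and shCtrl they were ACSL4 at -0.053, ACSL5 at -0.036 and DGAT2 at 0.053. Between shMETTL14 and shCtrl they were ACSL1 at -0.093 and LPIN1 at -0.068. Between shSETD2 and shMETTL14 they were ACSL1 at 0.065, ACSL5 at -0.036, LPIN1 at 0.055 and DGAT2 at 0.045. The first and the third comparison use the shSETD2 libraries at 6 h, which differed more from each other than any other pair.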

How the results depend on the processing

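Among the differences at 0 h, no member changed sign under an alternative where it was called in the main analysis or in that alternative. Counts of members called at 0 h and of slopes within a line stayed within 1.5 times the main count under every alternative; leaving out 1 library gave 6 to 9 members at 0 h for shSETD2 against shCtrl, 8 for shMETTL14 against shCtrl, 9 to 10 between the knockdown lines, and 7 to 9, 7 to 8 and 8 to 9 slopes in shCtrl, shSETD2 and shMETTL14. The directions of slopes within a line depend on the scaling, in log2 per hour. Under ribosomal protein gene scaling 6 members were called lower in shCtrl, 8 in shSETD2 and 9 in shMETTL14. Not every reversed slope below was thus a called fall. With ribosomal protein gene scaling the shCtrl slopes reversed to -0.124 (ACSL1), -0.0985 (ACSL3), -0.033 (ACSL4), -0.0060 (ACSL5), -0.128 (LPIN1), -0.0187 (LPIN3), -0.0275 (DGAT1) and -0.15 (DGAT2), the shSETD2 slopes to -0.148 (ACSL1), -0.111 (ACSL3), -0.0804 (ACSL4), -0.0375 (ACSL5), -0.138 (LPIN1), -0.0104 (LPIN3) and -0.0929 (DGAT2), and the shMETTL14 slopes to -0.103 (ACSL3), -0.0583 (ACSL4), -0.0229 (ACSL5), -0.0363 (LPIN3), -0.0606 (DGAT1) and -0.158 (DGAT2). With library size alone, limma on log2(RPKM + 0.1) and limma on log2(RPKM + 1), ACSL1 became -0.025, -0.0248 and -0.0237 in shCtrl and -0.0437, -0.0435 and -0.0411 in shSETD2, DGAT2 became -0.0503, -0.0493 and -0.0432 in shCtrl and -0.0541, -0.053 and -0.0455 in shMETTL14, and ACSL3 became -0.0078, -0.0087 and -0.0085 in shSETD2; LPIN1 became -0.0328 and -0.0276 in shSETD2 under the first and the last. Over 1, 3 and 6 h LPIN2 became 0.0071 in shCtrl and the ACSL5 slope differences 0.0127 (shSETD2 minus shCtrl) and 0.0091 (shSETD2 minus shMETTL14); over 0, 1 and 3 h that of AGPAT3 became -0.0117 (shSETD2 minus shCtrl). The cause was not tested.

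Members called by slope difference moved most. For shSETD2 minus shCtrl, 3 in the main analysis, 1 was called with RLE size factors, library size alone, ribosomal protein gene scaling, DESeq2, limma on either RPKM scale and only the groups compared, 5 over 0, 1 and 3 h, 0 over 1, 3 and 6 h, and 0 to 5 without 1 library. For shMETTL14 minus shCtrl, 2 in the main analysis, 1 was called with RLE size factors, a mean of at least 5 CPM, limma-voom, only the groups compared and 0, 1 and 3 h, 4 with the GC trend removed, and 1 to 2 without 1 library. Between the knockdown lines, 4 in the main analysis, 1 to 7 were called without 1 library. With a replicate block 3, 3 and 5 members were called in these comparisons; the deviations of same-numbered libraries correlated at over 0.1 in 36 of 66 pairs of groups (median 0.18, from -0.21 to 0.67), not in all of them, so the numbers were not taken to pair libraries. Over all genes, the slope difference of shSETD2 from shCtrl was called for 1182 genes (18.8% of them higher), 2015 with a replicate block, 757 with RLE size factors (61.2% higher), 760 by library size alone (35.9%), 301 with ribosomal protein gene scaling (49.5%), 726 with limma on log2(RPKM + 0.1), 138 over 1, 3 and 6 h, 489 to 3860 without 1 library. For shMETTL14 it was called for 775 genes (35.6% higher), 1222 by library size alone (14.3%), 768 with ribosomal protein gene scaling (12.5%), 740 with RLE size factors (48.6%), 1661 at a mean of at least 5 CPM, 1194 and 1289 on the RPKM scales, 2520 from only the groups compared, 297 over 1, 3 and 6 h, 1851 with the GC trend removed, and as few as 466 without 1 library. Between the knockdown lines it was called for 1430 genes (33.4% higher), 2205 with a replicate block, 726 over 0, 1 and 3 h, 2768 with the GC trend removed, 696 to 3553 without 1 library, and 63.8%, 78.1% and 86.3% of calls were higher with RLE size factors, library size alone and ribosomal protein gene scaling. At a mean of at least 5 CPM the slope difference of shSETD2 from shCtrl was called for 1638 genes, 84.4% of them higher. From only the groups compared it was called for 800 (84.6%). For shMETTL14 the shares higher in these settings were 82.9% and 86.0%, and between the knockdown lines 51.3% and 90.5%. The stricter filter, with the scaling estimated again, thus reversed the main direction of the calls against shCtrl. With no filter that direction stayed, with 17.3% of calls higher for shSETD2 and 30.6% for shMETTL14. Library size alone moved the median log2 difference of all genes at 0 h to -0.14 for shSETD2 (28.3% of calls higher, against 53.3%) and to -0.18 between the knockdown lines (28.7%, against 55.9%).

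Of the pathway genes named, ABHD5, ABHD6, ACSS3 (shMETTL14) and PPAP2B (shSETD2) lost their 0 h call under at least 1 alternative, and all 10 slope differences did; SOAT1 lost it most often. With 2 libraries per group and 3 h as the only time between 1 and 6 h, a slope difference of a few hundredths of a log2 unit per hour lies near what these data resolve.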
